A study of Mus musculus with 34 samples.

Results

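Tnf, Lta and Ltb are 3 neighbouring genes of the tumor necrosis factor (TNF) family on mouse chromosome 17. They were taken by name from the GENCODE annotation of mm10 (GRCm38), as 3 of 55413 annotated genes, and every peak over the genes and 50 kb to each side (chr17:35144439-35255351) was read one by one in 30 ChIP-seq peak lists. That window held 407 of 1393623 listed peaks. The lists came from bone marrow-derived dendritic cells (BMDCs) of C57BL/6 mice, 8 weeks old by the labels. Cells carried CreER alone (CTCF-WT) or CreER with CTCF fl/fl (CTCF-KO), a tamoxifen-inducible Cre recombinase without or with a floxed Ctcf gene. Marrow was grown in GM-CSF for 6 days, and 4-OH tamoxifen was given on the first day to delete Ctcf. CTCF-WT and CTCF-KO cells were left untreated or given lipopolysaccharide (LPS) at 100 ng/ml for 3 h, and STAT5 was read without LPS, after a further 15 min of GM-CSF. Since deletion was induced in culture on the first day, the cells differentiated while the gene was being lost, and CD11c was the selection marker in the study's methods.

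TNF, encoded by Tnf, is a secreted cytokine that myeloid cells make quickly after LPS. Lta encodes lymphotoxin alpha and Ltb encodes lymphotoxin beta, which together form a membrane ligand known for its part in lymphoid organ formation. The genes lie in the class III part of the major histocompatibility complex. p65 (RelA) is a subunit of NF-κB, the factor that enters the nucleus after LPS and binds the κB motif. CTCF binds DNA at its own motif and halts the cohesin ring, of which SMC1 is a subunit.

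Ltb (ENSMUSG00000024399) spans 35194439 to 35196320 on the plus strand, Tnf (ENSMUSG00000024401) 35199381 to 35202007 on the minus strand, and Lta (ENSMUSG00000024402) 35203165 to 35205351 on the minus strand. Positions are given as distance from the Tnf start at 35202007. Positive values lie upstream of Tnf, through Lta towards Nfkbil1, and negative values lie through Ltb towards Prrc2a. There was 1 list per antibody and condition, so no value has a replicate and no difference between conditions was tested. A peak has a fold enrichment over background, and its place in its own list is given as the top percent by −log10 p, where a low value is a strong peak. For narrow peaks the whole number of fragments at the summit was recovered from the deposited values. It is given with an exact 95% Poisson interval, or divided by the background level of the list (its coverage), and such intervals hold counting error only.

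The bases at p65 and STAT5 summits, and those before the Tnf and Ltb starts, are shown first, with a match to the κB motif in capitals, or of TTCNNNGAA (the STAT5 motif, searched on both strands, where it reads the same) at Lta. They are RefSeq GRCm38.p6 bases, 5′ to 3′, and the gene-upstream stretches stop before the transcribed part. The Ltb stretch is shown for its κB match and held no p65 or STAT5 peak.
Tnf, bases before the start, chr17:35202008-35202257, minus strand: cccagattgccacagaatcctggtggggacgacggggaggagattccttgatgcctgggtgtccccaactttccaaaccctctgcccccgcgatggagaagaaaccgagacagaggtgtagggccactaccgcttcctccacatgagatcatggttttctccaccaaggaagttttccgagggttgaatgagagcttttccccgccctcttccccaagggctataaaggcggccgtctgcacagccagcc
p65 summit of CTCF-WT with LPS upstream of Tnf, chr17:35202456-35202556, plus strand: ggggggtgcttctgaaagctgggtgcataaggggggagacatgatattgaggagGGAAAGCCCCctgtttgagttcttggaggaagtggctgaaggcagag
p65 summit of CTCF-KO with LPS 8 kb upstream, chr17:35210350-35210450, plus strand: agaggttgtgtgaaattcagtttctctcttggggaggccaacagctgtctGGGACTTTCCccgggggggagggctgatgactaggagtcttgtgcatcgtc
p65 summit of CTCF-WT with LPS 18 kb upstream, chr17:35219691-35219791, plus strand: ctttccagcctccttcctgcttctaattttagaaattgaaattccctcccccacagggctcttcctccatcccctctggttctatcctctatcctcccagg
Ltb, bases before the start, chr17:35194257-35194438, plus strand: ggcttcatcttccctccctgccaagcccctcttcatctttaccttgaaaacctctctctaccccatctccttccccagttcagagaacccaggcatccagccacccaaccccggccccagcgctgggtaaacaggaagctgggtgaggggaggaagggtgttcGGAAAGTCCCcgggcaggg
STAT5 summit of CTCF-WT at Lta, chr17:35205462-35205562, plus strand: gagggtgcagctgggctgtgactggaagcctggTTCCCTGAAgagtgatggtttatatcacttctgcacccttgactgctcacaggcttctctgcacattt

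p65 was listed at the Tnf promoter in all 4 conditions, and the peak of CTCF-WT cells with LPS was the strongest of them. Its fold was 7.59 in CTCF-WT, 33.4 in CTCF-WT with LPS, 5.86 in CTCF-KO and 13.8 in CTCF-KO with LPS. These peaks held 12 (6.20 to 21.0), 61 (46.7 to 78.4), 9 (4.12 to 17.1) and 24 (15.4 to 35.7) fragments at the summit. Both LPS values lie above both untreated values, and the interval of CTCF-WT with LPS lies above that of CTCF-KO with LPS. Divided by coverage, the LPS peak held 4.24 times (interval 2.26 to 8.65) the fragments of the untreated peak in CTCF-WT and 2.30 times (1.03 to 5.63) in CTCF-KO. CTCF-WT held 2.43 times (1.49 to 4.07) as many as CTCF-KO with LPS, and 1.32 times (0.510 to 3.54) without it, an interval that includes 1. In its own list the peak ranked 62 of 5465 in CTCF-WT with LPS (top 1.13%) and 192 of 1752 in CTCF-KO with LPS (top 11.0%). Without LPS it ranked 491 of 781 and 438 of 504. In bulk cultures fewer cells with a bound site and less binding per cell cannot be told apart.

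The summit at Tnf lay at different places of the promoter between lists, so the ratios above that involve CTCF-WT with LPS compare different bases. It lay 499 bp upstream of the start in CTCF-WT with LPS, and 193, 152 and 132 bp upstream in CTCF-WT, CTCF-KO and CTCF-KO with LPS. The bases within 50 bp of the CTCF-WT summit with LPS held 1 κB match, and those around the other 3 summits held none. No match lay in the 250 bases before the Tnf start, although a stretch with 1 mismatch did, and 3.90% of 32851 RefSeq promoter stretches of that length held a match. Over all lists the share of p65 summits with a κB match within 50 bp was 234 of 781 in CTCF-WT, 11.9% in CTCF-WT with LPS, 23.0% in CTCF-KO and 12.6% in CTCF-KO with LPS.

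A second strong p65 site lay 18 kb upstream of Tnf at 35219435 to 35220356, with its summits between genes and its far edge inside Nfkbil1, next to the Nfkbil1 3′ end. Its fold was 12.8 in CTCF-WT, 31.8 in CTCF-WT with LPS, 7.04 in CTCF-KO and 19.8 in CTCF-KO with LPS. The summits held 21 (13.0 to 32.1), 58 (44.0 to 75.0), 11 (5.49 to 19.7) and 35 (24.4 to 48.7) fragments. This peak ranked 72 of 5465 in CTCF-WT with LPS (top 1.32%) and 63 of 1752 in CTCF-KO with LPS (top 3.60%), close to the top of both lists. Per coverage, the LPS peak held 2.30 times (1.38 to 4.00) the untreated fragments in CTCF-WT and 2.75 times (1.36 to 5.99) in CTCF-KO. With LPS CTCF-WT held 1.58 times (1.02 to 2.48) the fragments of CTCF-KO. Its summits lay within 36 bp of each other, and the window around the CTCF-WT summit with LPS, printed above, held no κB match but a stretch with 1 mismatch.

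**Figure D1:**
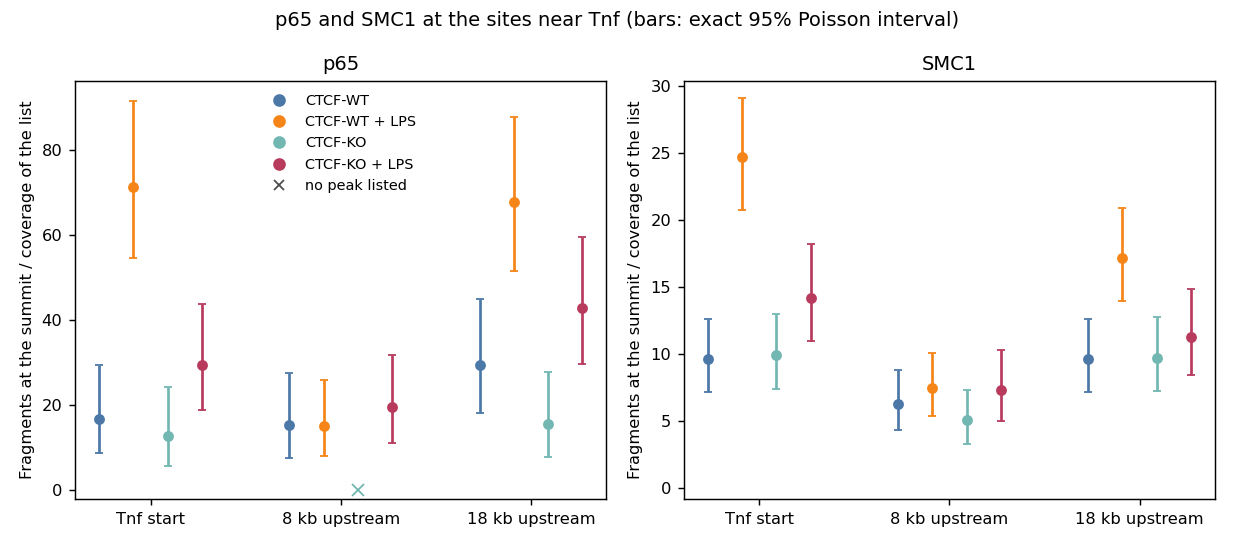
Fragments at the summit divided by the coverage of the list (y axis, no unit) for p65 (left) and SMC1 (right) at 3 sites, by condition. Points are single lists, bars the exact 95% Poisson interval, and a cross marks a list with no peak. CTCF-WT with LPS is highest for both proteins at the Tnf start and 18 kb upstream. At 18 kb its interval overlaps that of CTCF-KO with LPS for both proteins. At 8 kb the intervals of all listed peaks overlap.

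Between them, 8 kb upstream, was a weaker p65 site. Its fold was 7.01 in CTCF-WT, 7.55 in CTCF-WT with LPS and 9.36 in CTCF-KO with LPS, and CTCF-KO had no peak there. With 11, 13 and 16 fragments the intervals overlap, and per coverage the LPS peak of CTCF-WT held 0.986 times (0.407 to 2.43) the untreated fragments. The κB match printed above lay within 50 bp of the summits of CTCF-WT and of CTCF-KO with LPS. It lay farther from the summit of CTCF-WT with LPS, but within 100 bp of it. The summits lay within 69 bp of each other. The remaining p65 peaks were in 1 list each. CTCF-WT with LPS had a peak of fold 5.93 in an exon of Ltb, 926 bp past the start of its longest transcript, and one of fold 7.55 at 12.7 kb. CTCF-KO with LPS had a peak of fold 5.50 in an intron of Tnf. These held 10, 13 and 9 fragments and stood in the top 70.0%, 45.6% and 89.7% of their lists. No p65 peak lay within 2.5 kb of the Lta start in any list, nor at the κB match that Ltb carries 87 bases before its RefSeq start.

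Counted over the window, p65 had 3 peaks in CTCF-WT, 5 in CTCF-WT with LPS, 2 in CTCF-KO and 4 in CTCF-KO with LPS. Of the 5 peaks of CTCF-WT with LPS, 2 had no peak of CTCF-WT at the same place, against 86.7% of that whole list. Against CTCF-KO with LPS it was 2 of 5, where the list had 77.3%. With summits required within 200 bp, both counts were 3 of 5, against 87.2% and 78.3% of the list. Of the 3 CTCF-WT peaks 1 was absent from CTCF-KO (56.9% of the list), and of the 4 peaks of CTCF-KO with LPS 2 were absent from CTCF-KO (77.1%). With 2 to 5 peaks in a list, 1 peak moves these counts widely.

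A p65 promoter peak is uncommon. Within 2.5 kb of the start, 0.474% of 21938 protein-coding genes had one in CTCF-WT, 2.86% in CTCF-WT with LPS, 0.342% in CTCF-KO and 1.86% in CTCF-KO with LPS. The lowest −log10 p of these lists was 6.05, 4.35, 5.46 and 5.39 in the same order, so CTCF-WT with LPS admits weaker peaks. With 6.05 as a common limit the p65 counts in the window did not change, and the promoter shares were not recomputed. Tnf had one in all 4 lists, Ltb in CTCF-WT with LPS alone, and Lta in none.

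STAT5, a factor downstream of the GM-CSF receptor, was listed at Lta in both genotypes. The sources differ on whether the antibody was to total or phosphorylated STAT5. The CTCF-WT peak at Lta had its summit 161 bp upstream of the start, fold 9.06 and 23 (14.6 to 34.5) fragments, and it stood in the top 35.6% of 8185 peaks. The CTCF-KO peak, 108 bp upstream, had fold 4.44 with 15 (8.40 to 24.7) fragments and stood in the top 82.8% of 6850 peaks. Per coverage the CTCF-WT peak held 1.96 times (0.98 to 4.04) the fragments of the CTCF-KO peak, an interval that includes 1. The TTCNNNGAA printed for Lta lay within 50 bp of both summits, as such a match did for 37.9% of summits in each list. At the Tnf promoter only CTCF-KO had a STAT5 peak, of fold 5.55 and 14 fragments, 228 bp upstream. Among all promoters 3.96% had a STAT5 peak in CTCF-WT and 3.29% in CTCF-KO.

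Farther upstream 4 STAT5 sites at 17.1, 17.7, 18.2 and 20.5 kb were in both lists, with folds of 5.15 to 6.14 in CTCF-WT and 3.24 to 5.92 in CTCF-KO. The 17.7 kb and 18.2 kb sites lay within the p65 site there. A STAT5 peak at 13.2 kb, of fold 6.44, was in CTCF-WT alone. In all, 6 peaks stood in each list. Of those of CTCF-WT 1 lacked a CTCF-KO partner (35.2% of the list), and of those of CTCF-KO 1 lacked a CTCF-WT partner (22.8%).

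CTCF peaks were listed on both sides of the genes but not at Tnf or Lta. No CTCF peak lay within 2.5 kb of either start in any list, where 29.5% of promoters had one in CTCF-WT, 27.2% in CTCF-WT with LPS, 19.1% in CTCF-KO and 10.1% in CTCF-KO with LPS. Around the Tnf start the summits left a gap of 24.0 kb, from −4.40 kb to 19.6 kb, which holds Tnf, Lta and the p65 sites 8 kb and 18 kb upstream. The Ltb promoter had CTCF peaks in CTCF-WT, CTCF-WT with LPS and CTCF-KO, the strongest 1382 to 1404 bp past the start of its longest transcript, and none in CTCF-KO with LPS.

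**Figure D2:**
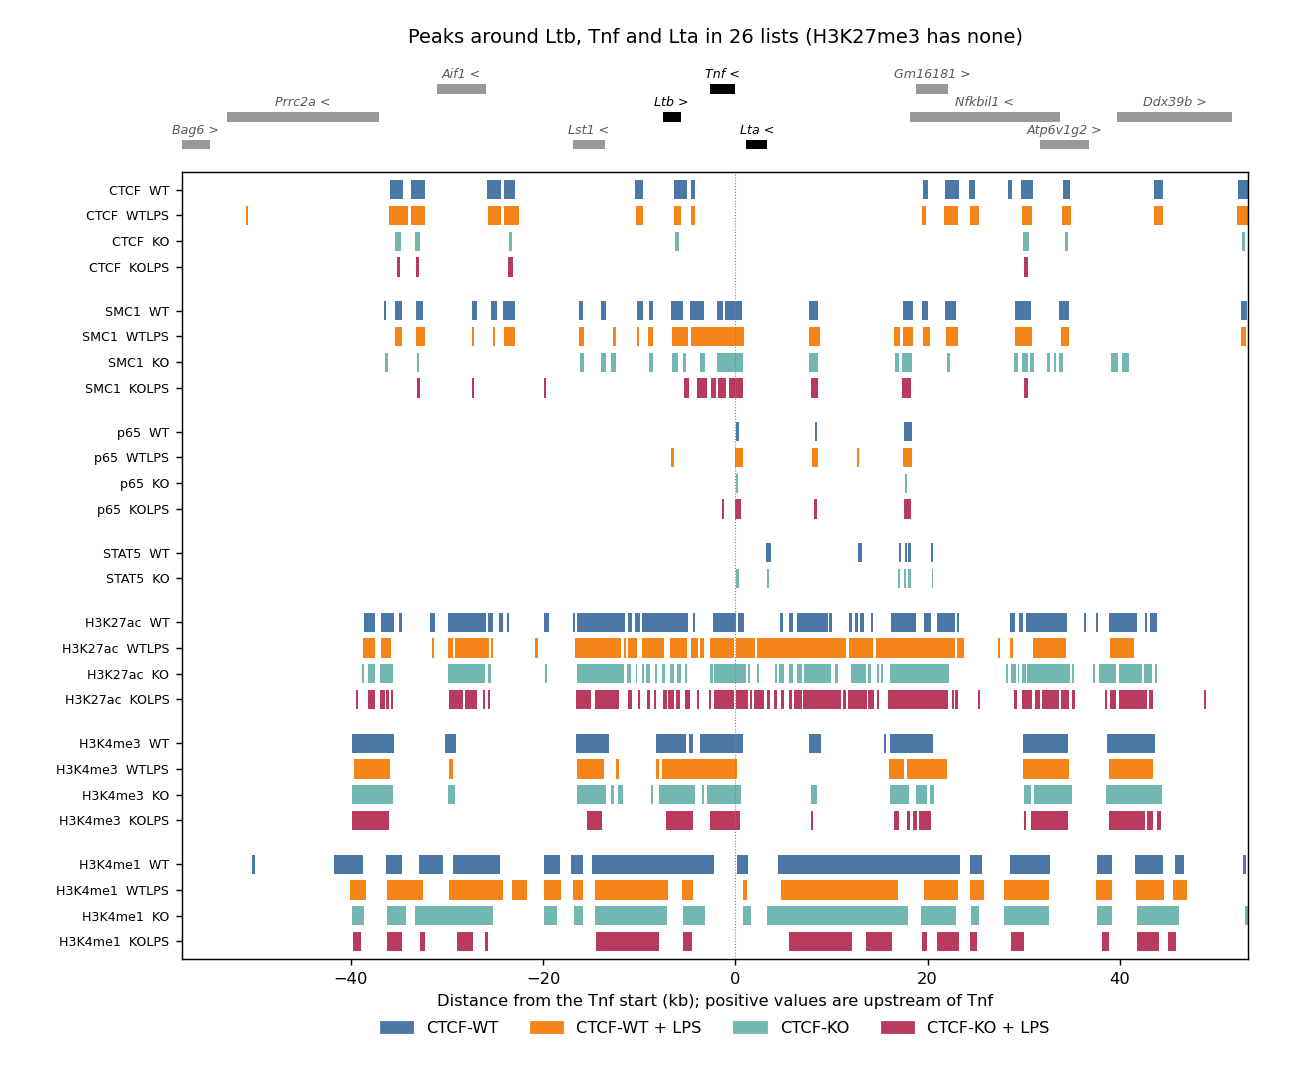
Peaks of 26 lists around Ltb, Tnf and Lta. The x axis is distance from the Tnf start in kb, each row is a list (antibody and condition), each block a peak drawn to its width or to a small minimum width. Arrows after gene names give strand and the 3 genes are in black. The CTCF rows are empty around Tnf and Lta and thin out in CTCF-KO, and the p65 rows hold blocks at 0 kb and 18 kb in all 4 conditions.

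The window held 15 CTCF peaks in CTCF-WT, 15 in CTCF-WT with LPS, 7 in CTCF-KO and 4 in CTCF-KO with LPS, merging to 16 sites. Of these, 4 had a peak in all conditions, 3 in all but CTCF-KO with LPS, 7 in both CTCF-WT lists, and 2 in 1 of those lists. Thus 8 of 15 CTCF-WT peaks lacked a CTCF-KO peak (76.3% of the list), and 11 of 15 lacked one with LPS (82.5% of the list). The 7 CTCF-WT peaks also listed in CTCF-KO were the strongest 7, with folds of 16.7 to 28.1 and ranks 2895 to 12212 of 60537. The 8 others had folds of 4.43 to 16.3. Across the whole list, 83.2% of peaks to rank 12212 and 8.70% of weaker ones had a CTCF-KO peak, so the window followed the order of strength of the list. With LPS the 4 peaks that kept a partner ranked 3322 to 10915, and 1 peak without one was stronger than the weakest of them, at rank 9172 and fold 16.3.

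The sites that held CTCF in all 4 conditions lay 35.0, 33.0 and 23.3 kb beyond the Tnf start on the Prrc2a and Aif1 side and 30.3 kb on the Nfkbil1 side. The strongest, at −33.0 kb, had folds of 28.1 in CTCF-WT, 23.2 in CTCF-WT with LPS, 11.1 in CTCF-KO and 9.16 in CTCF-KO with LPS. The site at 30.3 kb had folds of 24.5, 21.6, 9.87 and 7.85 in the same order. Per coverage CTCF-WT held 2.42 times (1.70 to 3.50) and 2.39 times (1.64 to 3.54) the fragments of CTCF-KO at these sites, so a peak that was still listed in CTCF-KO was lower. Next to the genes, the Ltb site at −5.71 kb had fold 16.7 in CTCF-WT, 11.7 in CTCF-WT with LPS and 5.82 in CTCF-KO. CTCF-WT held 2.80 times (1.72 to 4.72) the fragments of CTCF-KO there per coverage. The site at −4.42 kb, between Ltb and Tnf, had fold 12.5 in CTCF-WT and 5.52 in CTCF-WT with LPS, 0.438 times (0.261 to 0.717) per coverage, and no CTCF-KO peak.

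**Figure D3:**
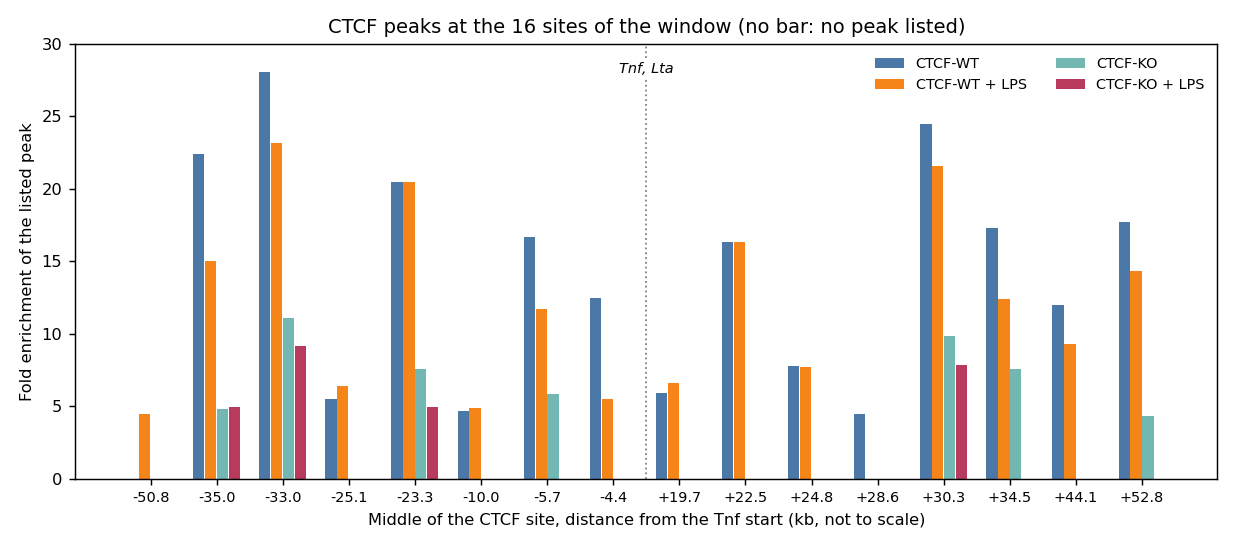
Fold enrichment of the listed CTCF peak (y axis, from 0) at the 16 CTCF sites of the window, ordered along the chromosome and labelled with their distance from the Tnf start in kb (x axis, not to scale). Each bar is a list and a missing bar means no peak was listed. CTCF-KO bars stand at 7 sites and CTCF-KO with LPS bars at 4, each below the CTCF-WT bars of the same site.

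Cores of the CTCF motif at 8 of the sites are printed to show how kept and lost sites differ in sequence. The 14 bases closest to the core motif within 100 bp of the CTCF-WT summit are in capitals, on the strand that matches it.
All conditions, −35.0 kb, chr17:35166839-35166868, plus strand: agagttttACACCAGAGGGCGCcattgctg
All conditions, −33.0 kb, chr17:35168968-35168997, plus strand: agagttttACACTAGAGGGCGCtagtgctg
All conditions, −23.3 kb, chr17:35178679-35178708, plus strand: tcaggtccCCAGCAGGGGGCAGcacgtacc
All conditions, 30.3 kb, chr17:35232191-35232220, minus strand: cagttctgCCACGAGGTGGCGCtctaatcc
All but CTCF-KO with LPS, Ltb, −5.71 kb, chr17:35195848-35195877, minus strand: ggcttcggCCGGCAGGGGGCGTcctgcccc
CTCF-WT lists alone, −4.42 kb, chr17:35197597-35197626, plus strand: cagacactCCAGAAGAGGGAGTcagaagac
CTCF-WT lists alone, 22.5 kb, chr17:35224586-35224615, plus strand: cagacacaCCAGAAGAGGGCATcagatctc
CTCF-WT list alone, 28.6 kb, chr17:35230537-35230566, minus strand: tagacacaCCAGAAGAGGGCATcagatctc
The 7 sites kept in CTCF-KO had 0 to 2 mismatches to the core, and 5 of them at most 1. The 8 lost sites had 2 to 5. In the whole CTCF-WT list 57.3% of the peaks kept in CTCF-KO and 21.0% of those lost had at most 1 mismatch. This count was added after the sequences were seen. The cores at 22.5 kb and 28.6 kb are the same 14 bases.

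SMC1 peaks numbered 21 in CTCF-WT, 19 in CTCF-WT with LPS, 22 in CTCF-KO and 11 in CTCF-KO with LPS. Of 26 merged SMC1 sites 12 shared bases with a CTCF site. All 12 had peaks in both CTCF-WT lists, 6 in CTCF-KO and 4 in CTCF-KO with LPS. Of all 38760 such sites of the genome 90.3% had a peak in CTCF-WT, 84.5% in CTCF-WT with LPS, 17.9% in CTCF-KO and 11.3% in CTCF-KO with LPS. Of the 14 sites away from CTCF, 7 had a peak in each CTCF-WT list, 12 in CTCF-KO and 4 in CTCF-KO with LPS. The shares of all 41282 sites away from CTCF were 66.1%, 57.5%, 52.9% and 29.0%. Of CTCF-WT peaks 7 of 21 lacked a CTCF-KO peak (65.5% of the list), and 12 of 19 with LPS (76.7%). At −23.5 kb the SMC1 peak had folds of 25.8 and 20.3 in CTCF-WT and CTCF-WT with LPS and was listed in neither CTCF-KO list. At the 30.3 kb CTCF site it had 20.5 and 15.4, with 6.47 in CTCF-KO and 4.37 in CTCF-KO with LPS, and CTCF-WT held 3.21 times (2.24 to 4.70) the fragments of CTCF-KO.

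At the Tnf promoter SMC1 was listed in all 4 conditions, without a CTCF peak there. Its fold was 8.28 in CTCF-WT, 21.1 in CTCF-WT with LPS, 8.52 in CTCF-KO and 11.8 in CTCF-KO with LPS, with 52, 142, 53 and 64 fragments. Without LPS CTCF-WT held 0.970 times (0.649 to 1.45) the fragments of CTCF-KO per coverage. With LPS, CTCF-WT held 1.73 times (1.28 to 2.37) the fragments of CTCF-KO. The LPS peak held 2.56 times (1.85 to 3.59) the untreated fragments in CTCF-WT and 1.43 times (0.98 to 2.1) in CTCF-KO, an interval that includes 1. The peak stood in the top 23.9% of the CTCF-WT list, 1.74% with LPS, 4.01% in CTCF-KO and 1.32% in CTCF-KO with LPS. In CTCF-WT with LPS it ran for 5467 bp, from the −4.42 kb CTCF site past the Tnf start, and merges there with that site, which is 1 of the 12 above. The CTCF-KO peaks of that merged site, with and without LPS, did not reach the CTCF site, and the other 11 sites had 5 peaks in CTCF-KO and 3 in CTCF-KO with LPS.

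The 18 kb p65 site had SMC1 in all conditions as well, with folds of 8.28, 14.8, 8.36 and 9.46, and its LPS peak held 1.78 times (1.26 to 2.55) the untreated fragments in CTCF-WT and 1.16 times (0.775 to 1.75) in CTCF-KO. At the 8 kb site the folds were 5.47, 6.50, 4.42 and 6.19. Among all promoters 30.4% had SMC1 in CTCF-WT, 27.1% in CTCF-WT with LPS, 21.6% in CTCF-KO and 13.9% in CTCF-KO with LPS. Ltb had it in all 4 lists, in CTCF-KO with LPS through a peak of fold 3.82 whose summit was 2282 bp past the start. Lta had it only in CTCF-WT with LPS, through the edge of the 5467 bp peak.

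H3K27ac, an acetylation mark of active promoters and enhancers, lay in 5 successive peaks from the Tnf gene to 35224896 in CTCF-WT with LPS. The strongest peak reaching within 2.5 kb of the Tnf start had a fold of 8.74 in CTCF-WT, 22.3 in CTCF-WT with LPS, 16.6 in CTCF-KO and 17.8 in CTCF-KO with LPS, the top 9.49%, 0.535%, 2.01% and 0.757% of their lists. In CTCF-WT with LPS that best peak was 9320 bp wide, with its summit 8674 bp upstream of Tnf. Over the body of Tnf the peaks had folds of 8.74, 15.5, 16.6 and 13.9 in the same order, and 15.4 (9.12 to 24.3), 27.5 (18.9 to 38.6), 37.4 (24.9 to 54.1) and 30 (19.2 to 44.6) fragments per coverage. CTCF-WT was the lowest. Its interval overlaps those of both LPS lists and lies below that of CTCF-KO without LPS. A neighbouring peak of 8294 bp, at fold 23.7, had its summit at 19.9 kb (top 0.396%). At the 8 kb site the peaks of the other conditions had folds of 14.3 in CTCF-WT, 22.3 in CTCF-KO and 19.4 in CTCF-KO with LPS, and widths of 3242, 2802 and 3913 bp. Those of CTCF-KO and CTCF-KO with LPS stood in the top 0.538% and 0.526% of their lists.

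Over the window H3K27ac had 37 peaks in CTCF-WT, 24 in CTCF-WT with LPS, 42 in CTCF-KO and 50 in CTCF-KO with LPS. The bases covered were 43.8, 49.8, 42.7 and 42.3 kb, so more peaks did not mean more cover. The coverage of the lists was 1.17, 1.20, 0.748 and 0.801. At CTCF-KO coverage 29.6 of the 37 CTCF-WT peaks would be expected to remain, and at the CTCF-KO coverage with LPS 22.0 of the 24. Of CTCF-WT peaks 10 of 37 lacked a CTCF-KO peak (52.8% of the list), and with LPS 7 of 24 (58.8%). H3K27ac was listed at 44.1%, 41.3%, 44.5% and 40.8% of promoters, and at all 3 genes in all 4 lists.

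**Figure D4:**
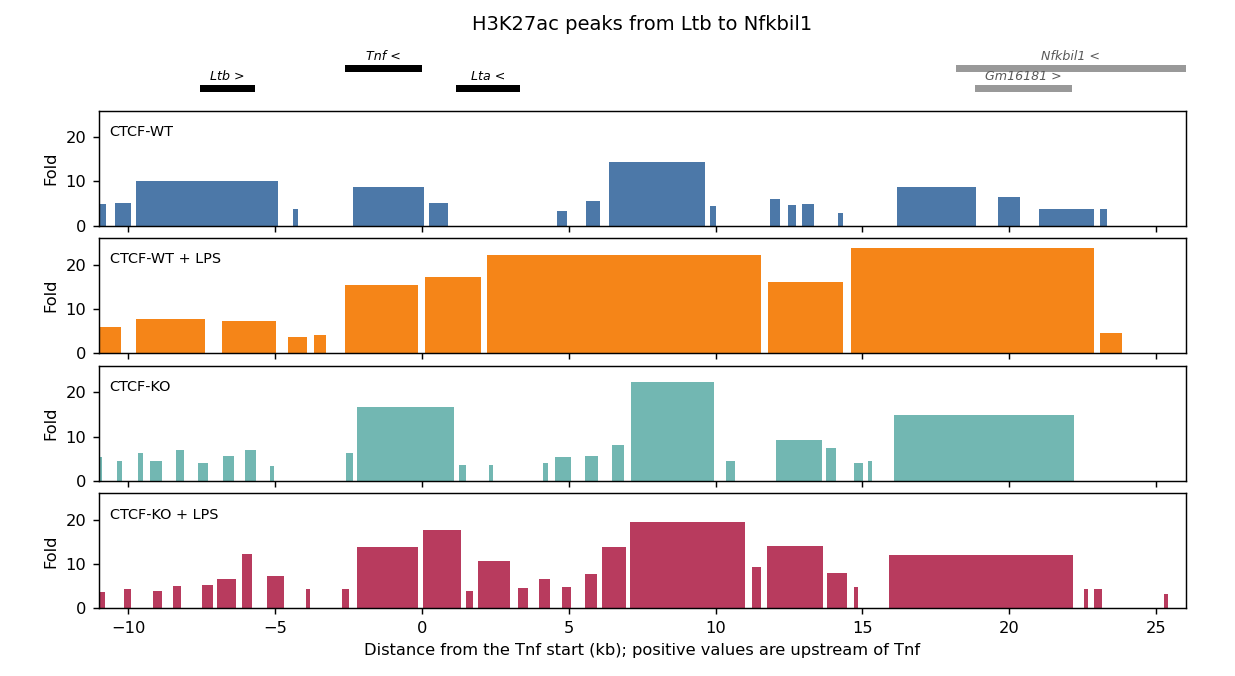
H3K27ac peaks from Ltb to Nfkbil1 by condition. The x axis is distance from the Tnf start in kb, and each block spans a peak, with its fold enrichment on the y axis. CTCF-WT with LPS has wide blocks, of 9320 and 8294 bp, upstream of Tnf, and the CTCF-KO rows have more and narrower blocks.

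H3K4me3, the mark of active promoters, was at Tnf and Ltb in all conditions and at Lta in none. At Tnf its fold was 30.9 in CTCF-WT, 25.1 in CTCF-WT with LPS, 26.4 in CTCF-KO and 15.5 in CTCF-KO with LPS. The widths were 4492, 7784, 3511 and 3144 bp, and the 7784 bp peak of CTCF-WT with LPS ran from Ltb to Tnf as 1 block. At Ltb the folds were 22.0 in CTCF-WT, 18.6 in CTCF-KO and 13.2 in CTCF-KO with LPS. Of all promoters 56.7%, 57.0%, 57.2% and 56.2% had H3K4me3. In the window CTCF-WT with LPS had 10 peaks, of which 3 lacked a CTCF-KO partner with LPS (26.6% of the list).

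H3K4me1, a mark of enhancers and promoter flanks, was in the lists of broad peaks. A site with its middle 0.923 kb upstream of the Tnf start had fold 2.42 in CTCF-WT, 2.16 in CTCF-WT with LPS and 2.62 in CTCF-KO. No peak was listed there in CTCF-KO with LPS. In CTCF-WT the edge of a 12716 bp peak of fold 3.14 also lay within 2.5 kb of the start. The middle of that wide peak was 8555 bp past the start. Ltb and Lta had peaks in all 4. Shares of promoters were 57.1%, 57.3%, 56.8% and 46.5%. In the window 16, 16, 15 and 16 peaks covered 59.2, 52.6, 54.6 and 30.1 kb. The smallest cover was in CTCF-KO with LPS, whose whole list also covered the least, 149 Mb against 259, 263 and 232 Mb. Of 16 peaks of CTCF-WT with LPS, 4 lacked a partner in CTCF-KO with LPS (41.6% of the list).

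H3K27me3, the mark of Polycomb-repressed genes, had no peak in the window in any list, where 27.1% of promoters had one in CTCF-WT, 20.8% in CTCF-WT with LPS, 27.6% in CTCF-KO and 11.8% in CTCF-KO with LPS.

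**Figure D5:**
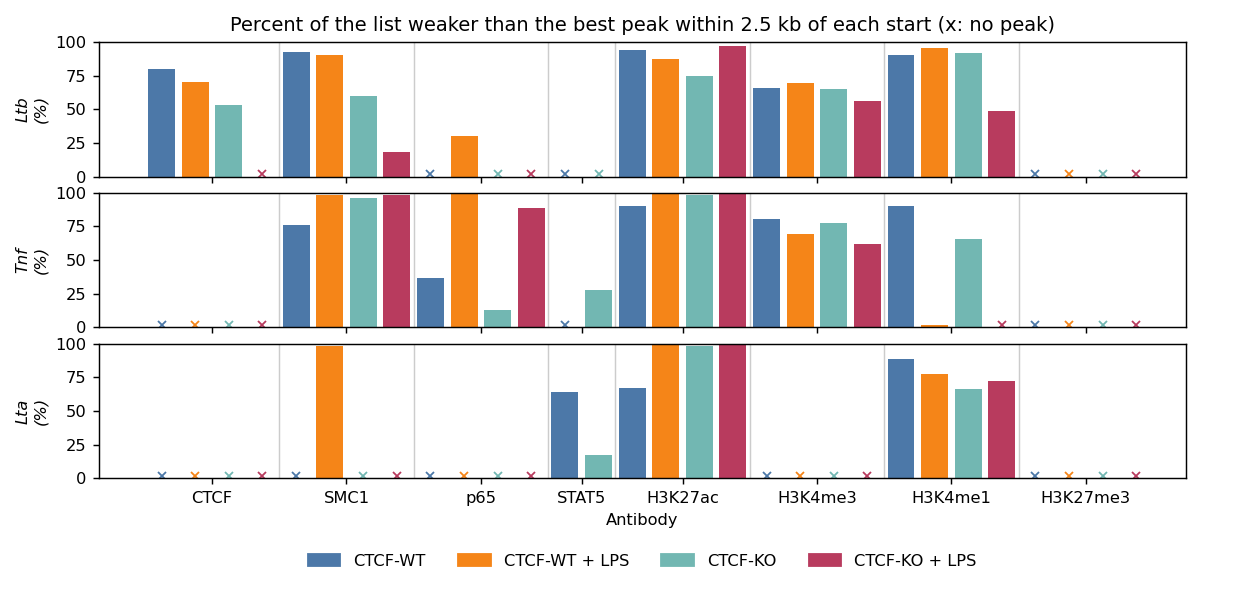
For Ltb, Tnf and Lta, the percent of the list (y axis) that is weaker than the best peak within 2.5 kb of the start, for each of 30 lists grouped by antibody (x axis). Crosses mark lists with no peak. Tnf and Ltb have a peak in 20 lists each and Lta in 11.

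Taking all lists, Tnf and Ltb had a promoter peak in 20 of 30 and Lta in 11 of 30. Of the 11 at Lta, 5 lay outside 1 kb of the start, among them the SMC1 peak. Within 1 kb Tnf kept a peak in 20 lists and Ltb in 16. Ltb there lacked its CTCF peaks and the SMC1 peak of CTCF-KO with LPS. Other genes of the window differed. Prrc2a, Lst1, Nfkbil1, Atp6v1g2 and Ddx39b had H3K4me3 in all lists and no p65. Bag6, whose gene body reaches into the window from a start at −66.8 kb, had H3K4me3 in all lists and p65 in CTCF-KO with LPS alone. Aif1, a calcium-binding protein of myeloid cells, had neither. Gm16181 had p65 in all 4 lists because the 18 kb site is within 2.5 kb of its start.

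The genes outside the window whose pattern of promoter peaks was most like that of Tnf, by the mean absolute difference of percentile rank over 30 lists, were Kdm6b (11.1), Slc2a6 (11.5), Ier5 (12), Irf2bp2 (12.3) and Ccrl2 (12.5). The median over all genes was 46.7. The next gene stood at 12.8, close behind these.

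Genes of the TNF and lymphotoxin pathway were counted at their promoters, in 37 genes of ligands, receptors, adaptors, NF-κB subunits, inhibitors and mRNA control. A p65 peak was listed at 8 of 37 (21.6%) in CTCF-WT, 14 (37.8%) in CTCF-WT with LPS, 5 (13.5%) in CTCF-KO and 8 (21.6%) in CTCF-KO with LPS, against the shares of all promoters above. Of the 6 receptor genes, only Cd40 had p65 with LPS. Tnfrsf1a, Tnfrsf1b and Ltbr, the receptors of TNF and the lymphotoxins, had none. All 4 lists held p65 at Nfkb2 and Rel, NF-κB subunits, at Nfkbia and Tnfaip3, inhibitors that end the signal, and at Birc3, a ubiquitin ligase of the receptor complex. Zfp36, which destabilises Tnf mRNA, Cd40 and the inhibitor Nfkbib were listed with LPS in both genotypes. Tnfsf15, Tnfsf4, Traf1, Birc2, Rela and Nfkbie had p65 in CTCF-WT with LPS and not in CTCF-KO with LPS. In the whole list of CTCF-WT with LPS, counted as peaks and not as genes, 77.3% lacked a partner in CTCF-KO with LPS. The absence at these genes is therefore not particular to the pathway. Nfkbib, Tnfsf15 and Nfkbie also had p65 in CTCF-WT without LPS. A STAT5 peak was listed at 7 of 37 (18.9%) in CTCF-WT and 6 (16.2%) in CTCF-KO, against 3.96% and 3.29% of all promoters. H3K4me3 was at 34 of 37 in all conditions, against 56.2% to 57.2% of all promoters.

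Depth and identity were read from the lists as well. The whole CTCF lists held 60537 peaks in CTCF-WT and 54020 with LPS, against 20151 and 11576 in CTCF-KO. The coverage of the narrow lists ran from 0.705 to 5.76, and was 0.713, 0.855, 0.705 and 0.817 for p65. Of all promoters, 56.2% to 57.2% had H3K4me3 across the 4 lists and 40.8% to 44.5% had H3K27ac. H3K27me3 was at 27.1% of them in CTCF-WT, 20.8% in CTCF-WT with LPS, 27.6% in CTCF-KO and 11.8% in CTCF-KO with LPS. The marker counts that follow are to be read beside these shares. H3K4me3 was at 13 of 13 dendritic cell genes in all conditions and H3K27ac at 12. H3K27me3 was at 3 of these genes in CTCF-WT and at 2 in each other list. H3K4me3 was at 1 of 6 T cell genes, 2 of 5 B cell genes and 0 of 3 mast cell genes, and H3K27ac at no more than 1 gene of each in any list. In CTCF-WT, CTCF-WT with LPS, CTCF-KO and CTCF-KO with LPS, H3K27me3 was at 4, 3, 4 and 2 T cell genes. It was at 3, 2, 3 and 2 B cell genes in that order, and at 1 mast cell gene in CTCF-WT alone. Macrophage genes, 4 in number, all had H3K4me3, with H3K27ac at 3 in CTCF-WT and 2 in the other lists, and the part of such cells in the results was not tested. H3K27me3 was at 2 macrophage genes in every list but CTCF-KO with LPS, which had none. H3K4me3 was also at 1 of 3 NK cell, 1 of 4 neutrophil and 2 of 2 erythroid genes, the last with no H3K27ac. H3K27ac was at 1 NK cell gene in all lists, and at 1 neutrophil gene in CTCF-KO with and without LPS but in neither CTCF-WT list. H3K27me3 was at 2 NK cell genes in all lists, and at 2 neutrophil genes in all but CTCF-KO with LPS. It was at 1 erythroid gene in CTCF-WT with LPS and at 2 in CTCF-KO.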

How the data were processed

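Per the labels and the study's methods, chromatin of mouse BMDCs was tagmented, sequenced in pairs and aligned to mm10. The submitters' processing notes name BWA 0.7.12, Picard 1.77, MACS2 2.1.2 and deepTools 3.1.3, and how each was set is not given there. The authors deposited 30 peak lists with fold enrichment (a ratio over background) and −log10 p and −log10 q for each peak. The 4 inputs had no list. The methods state 2 biological replicates per condition, and whether a list pools them was not settled, so each list counted as 1 sample. CTCF and SMC1 lists end at a −log10 p of about 7, so weaker peaks are not in them. The names of the H3K4me1 lists and their labels give different antibody makers. The labels and a reporting list give 1 STAT5 antibody for the ChIP and the methods' ChIP section another, listed elsewhere as against phosphorylated STAT5. Tool versions in the methods differ from these notes, and a filter on blacklisted regions is stated for p65 alone.

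Members, pathway genes, markers and motifs were chosen with earlier results of these data known. Named genes were Tnf, Lta and Ltb, the protein-coding genes of the window, pathway genes with p65 in CTCF-WT with LPS, and the 5 genes most like Tnf. The receptors without p65 (Tnfrsf1a, Tnfrsf1b and Ltbr) were named after their values were seen. Peaks sharing 1 bp were called shared, and a promoter ran 2.5 kb either way from where the longest transcript begins. The whole fragments at a summit were solved from fold and −log10 p in 22 narrow lists where −log10 p was below 25, which gives depth only as coverage. For stronger peaks the background was taken as the coverage of the list. The nearest whole number was kept if it gave back −log10 p within 2%. Ratios between lists used an exact conditional binomial interval and summits within 500 bp. Overlaps, fragments and motif searches were tested on simulated data. Alternatives were a 50% overlap, summits within 200 bp, the stronger part of each list and a common lowest −log10 p of each antibody. Others were equal coverage, promoters of 1 kb, and wider or looser motif searches. The tools were Python 3.11.15, pandas 2.3.3, numpy 2.4.6, scipy 1.17.1 and matplotlib 3.10.9.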

Additional observations from a re-analysis of the deposited data

Results flagged for a closer look

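The following values stood higher with LPS in 1 genotype and lower in the other, and with 1 list per group the difference was not tested. H3K27ac peaks in the window went from 37 to 24 in CTCF-WT and from 42 to 50 in CTCF-KO. The bases they covered went from 43.8 to 49.8 kb in CTCF-WT and from 42.7 to 42.3 kb in CTCF-KO. At the CTCF site at −35.0 kb the LPS peak held 0.676 times (0.490 to 0.927) the untreated fragments per coverage in CTCF-WT and 1.05 times (0.513 to 2.13) in CTCF-KO. At the CTCF site at −23.3 kb these ratios were 1.02 (0.754 to 1.37) and 0.649 (0.340 to 1.21). At the SMC1 site at −32.8 kb they were 0.742 (0.561 to 0.980) and 1.31 (0.763 to 2.27). At each of these sites at least 1 interval includes 1, so the opposite directions there do not exceed counting error.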

How the results depend on the processing

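Of 154 alternative values of the main counts, 104 stayed within 1.5 times and 50 moved. Keeping the stronger 50% of each list left CTCF 2 peaks in CTCF-KO with LPS. It left SMC1 13, 11, 9 and 6 peaks in CTCF-WT, CTCF-WT with LPS, CTCF-KO and CTCF-KO with LPS, and H3K4me3 7, 6, 7 and 5. It left p65 1 in CTCF-WT and 0 in CTCF-KO, STAT5 1 and 0, H3K27ac 20 in CTCF-WT, 27 in CTCF-KO and 31 in CTCF-KO with LPS, and H3K4me1 7 in CTCF-KO with LPS. Peaks lacking a partner are given with the share of the whole list under the same rule. With the stronger 50% of the first list they were 4 of 11 (list 55.5%) for CTCF and 3 of 13 (58.8%) for SMC1 without LPS, and 6 of 10 (66.7%) and 5 of 11 (67.6%) with LPS. For p65 they were 1 of 4 for CTCF-WT with LPS against CTCF-WT (76.3%) and against CTCF-KO with LPS (62.6%), 0 of 1 (35.3%) for CTCF-WT against CTCF-KO and 1 of 3 (63.2%) for CTCF-KO with LPS against CTCF-KO. They were 0 of 1 (10.4%) for STAT5, 1 of 20 (31.8%) and 0 of 16 (39.2%) for H3K27ac without and with LPS, 0 of 6 (0.558%) for H3K4me3 and 1 of 11 (16.3%) for H3K4me1. With a partner required over 50% of a peak's length, they were 15 of 15 (94.4%) for CTCF and 13 of 21 (73.7%) for SMC1 without LPS. For p65 they were 4 of 5 (92.5%) for CTCF-WT with LPS against CTCF-WT, 2 of 3 (58.9%) for CTCF-WT against CTCF-KO and 4 of 4 (81.6%) for CTCF-KO with LPS against CTCF-KO. For STAT5 they were 3 of 6 (38.6%) for CTCF-WT and 2 of 6 (26.7%) for CTCF-KO, for H3K27ac 16 of 37 (74.8%) and 15 of 24 (83.8%), for H3K4me3 6 of 10 (35.5%) and for H3K4me1 10 of 16 (71.7%). With summits within 200 bp they were 11 of 21 (69.8%) for SMC1, 24 of 37 (70.8%) and 18 of 24 (74.0%) for H3K27ac, and 8 of 10 (56.1%) for H3K4me3. At the coverage of the other list 5.31 H3K27ac peaks of CTCF-WT were expected without a CTCF-KO partner. Lta had a peak in 6 lists within 1 kb. With 1 mismatch allowed, 10 of 14 p65 summits had a motif (36.5% to 57.7% of the whole lists) and 13 of 41 CTCF summits (19.9% to 30.1%). Without a mismatch, 3 of 41 CTCF summits had one within 100 bp (7.67% to 18.3%). These counts pool the 4 lists of an antibody, so 1 site can count more than once. The cause was not tested beyond each alternative's own construction. No paired analysis was possible because each group has 1 list and the labels carry no replicate numbers. Few fragments limit the p65 and STAT5 values, and a peak missing from a list may lie under its threshold.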
